A study of Mus musculus with 8 samples.

Results

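The 9 genes Il6, Il6ra, Il6st, Lifr, Osmr, Stat3, Jak1, Jak2 and Ptpn2 form the core of the interleukin-6 (IL-6) pathway, from the cytokine through its receptors and kinases to the transcription factor STAT3. They were chosen by name, as the genes whose probe sets (groups of short probes for 1 transcript) carry that symbol alone in the array annotation. They are 9 of the 18193 genes measured and have 26 of the 34945 probe sets with 1 symbol. The values come from 8 Affymetrix mouse expression arrays in 4 groups of 2. Cells from leukemic mice are called exposed and those from normal mice control. All sorted cells carried the CD45.1+ surface allele, which in these chimeras marks cells without the leukemia transgene.

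The exposed HSC were CD150+ CD48- KSL cells (lineage-negative, Kit+, Sca-1+; the gate enriched for long-term stem cells) from CD45.1+ hosts that had received CD45.2+ BCR-ABL x SCL-tTA marrow mixed in equal number with CD45.1+ marrow. The control HSC came through the same gate from control chimeras made without the BCR-ABL transgene. The exposed KSL and the control KSL were CD45.1+ cells from the whole KSL gate of the same kinds of chimera. The BCR-ABL fusion kinase drives chronic myeloid leukemia. The SCL-tTA driver expresses it in stem and progenitor cells of the CD45.2+ marrow when tetracycline is absent, and sorting took place 4 weeks after the Tet water was withdrawn. The labels give no age, sex or strain, do not say whether the hosts were irradiated, and do not say whether replicate arrays came from separate or pooled animals, so p-values measure only the spread between these samples.

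IL-6 binds its own receptor, IL-6 receptor alpha, and the pair then engages gp130, the shared signalling chain encoded by Il6st. Gp130 activates the JAK kinases bound to it, which phosphorylate STAT3, and SOCS3 and phosphatases such as PTPN2 shut the signal off. Leukemia inhibitory factor and oncostatin M use the same gp130 chain together with LIFR and OSMR. In blood cell formation the pathway is known for acute-phase and emergency myeloid production, and IL-6 has been described as a factor made by leukemic cells in mouse models of chronic myeloid leukemia.

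The promoter windows of the receptor gene and the factor gene that separated HSC from KSL on all arrays, and of the receptor gene that passed the test in leukemic mice, are shown first. Each window holds 250 bases before and 50 after a RefSeq transcript start in the mouse build GRCm38.p6, read 5′ to 3′ on the gene's strand. The windows are Stat3 at chr11:100939491-100939790 (minus strand), Il6ra at chr3:89913147-89913446 (minus strand), and the 2 annotated starts of Lifr at chr15:7129322-7129621 and chr15:7140292-7140591 (plus strand). Capitals mark matches, on either strand, to any of 5 motifs searched.
Stat3: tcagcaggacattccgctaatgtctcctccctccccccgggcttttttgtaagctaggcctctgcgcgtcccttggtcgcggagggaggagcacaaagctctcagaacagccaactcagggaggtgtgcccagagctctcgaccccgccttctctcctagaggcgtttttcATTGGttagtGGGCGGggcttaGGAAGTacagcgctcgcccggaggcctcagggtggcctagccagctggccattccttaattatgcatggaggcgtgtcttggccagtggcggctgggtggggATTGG
Il6ra: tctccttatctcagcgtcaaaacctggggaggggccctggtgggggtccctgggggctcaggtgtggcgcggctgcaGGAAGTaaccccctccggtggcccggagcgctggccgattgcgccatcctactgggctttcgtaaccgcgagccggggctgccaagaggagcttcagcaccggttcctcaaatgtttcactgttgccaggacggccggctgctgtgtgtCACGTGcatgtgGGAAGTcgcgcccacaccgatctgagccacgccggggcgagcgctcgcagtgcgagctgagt
Lifr, first start: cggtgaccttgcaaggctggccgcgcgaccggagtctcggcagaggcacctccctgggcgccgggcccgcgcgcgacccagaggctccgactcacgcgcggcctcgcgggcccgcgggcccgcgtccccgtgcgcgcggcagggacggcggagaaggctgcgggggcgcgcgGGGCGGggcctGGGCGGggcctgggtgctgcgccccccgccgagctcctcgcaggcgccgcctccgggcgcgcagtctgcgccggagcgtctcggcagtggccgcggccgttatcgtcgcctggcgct
Lifr, second start: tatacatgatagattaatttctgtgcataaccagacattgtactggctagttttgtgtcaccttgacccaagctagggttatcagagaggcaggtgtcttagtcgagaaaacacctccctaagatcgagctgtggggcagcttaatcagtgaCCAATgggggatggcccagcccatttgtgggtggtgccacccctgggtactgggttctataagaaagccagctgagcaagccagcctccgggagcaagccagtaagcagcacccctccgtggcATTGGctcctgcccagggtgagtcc

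The motifs were the STAT element TTCNNNGAA, the GC box GGGCGG, the CCAAT box CCAAT, the E-box CACGTG and the ETS core GGAAGT. Each was counted on its own, so matches to different motifs may overlap. RefSeq windows were used for 8 of the 9 members, 9 windows in all, with 2 for Lifr. Ptpn2 was left out by a filter on chromosome that applied to the member windows and not to the 32851 windows counted below. The Stat3 window held 1 GC box, 2 CCAAT boxes and 1 ETS core. The Il6ra window held 1 E-box and 2 ETS cores and no GC or CCAAT box. The first Lifr window held 2 GC boxes and the second held 2 CCAAT boxes. Over all 32851 windows, the GC box occurred in 35.7%, the CCAAT box in 37.4%, the ETS core in 23.8% and the E-box in 7.15%. Among the 9 member windows, 6 held a GC box, 5 a CCAAT box, 3 an ETS core and 1 an E-box. The STAT element, present in 8.30% of all windows, had these letters in 0 of the 9.

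The array data have a lower bound that bears on several members. The deposited log2 signals stop at a floor of 3.32, which is 10 on the linear scale, and between 14.9% and 15.8% of probe sets lay at it on each array. Replicate arrays correlated across genes (which are not independent replicates) with r = 0.957 in exposed HSC, 0.965 in control HSC, 0.994 in exposed KSL and 0.988 in control KSL. Replicates had a median SD of 0.208, 0.196, 0.0940 and 0.114 log2 units in these groups, larger in HSC. Genes of the sort gate followed the labels: Slamf1, which encodes CD150, was at 8.47 and 8.23 in exposed HSC and 5.98 and 5.27 in exposed KSL, and at 8.90 and 9.36 in control HSC and 5.76 and 7.06 in control KSL. Cd48 was at 6.19 to 8.12 on the 4 HSC arrays and 10.17 to 10.44 on the 4 KSL arrays, and the Sca-1 gene was not analysed here. By sex-linked genes, 2 arrays were male, the first control HSC and the first control KSL array, and 6 were not.

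**Figure D1:**
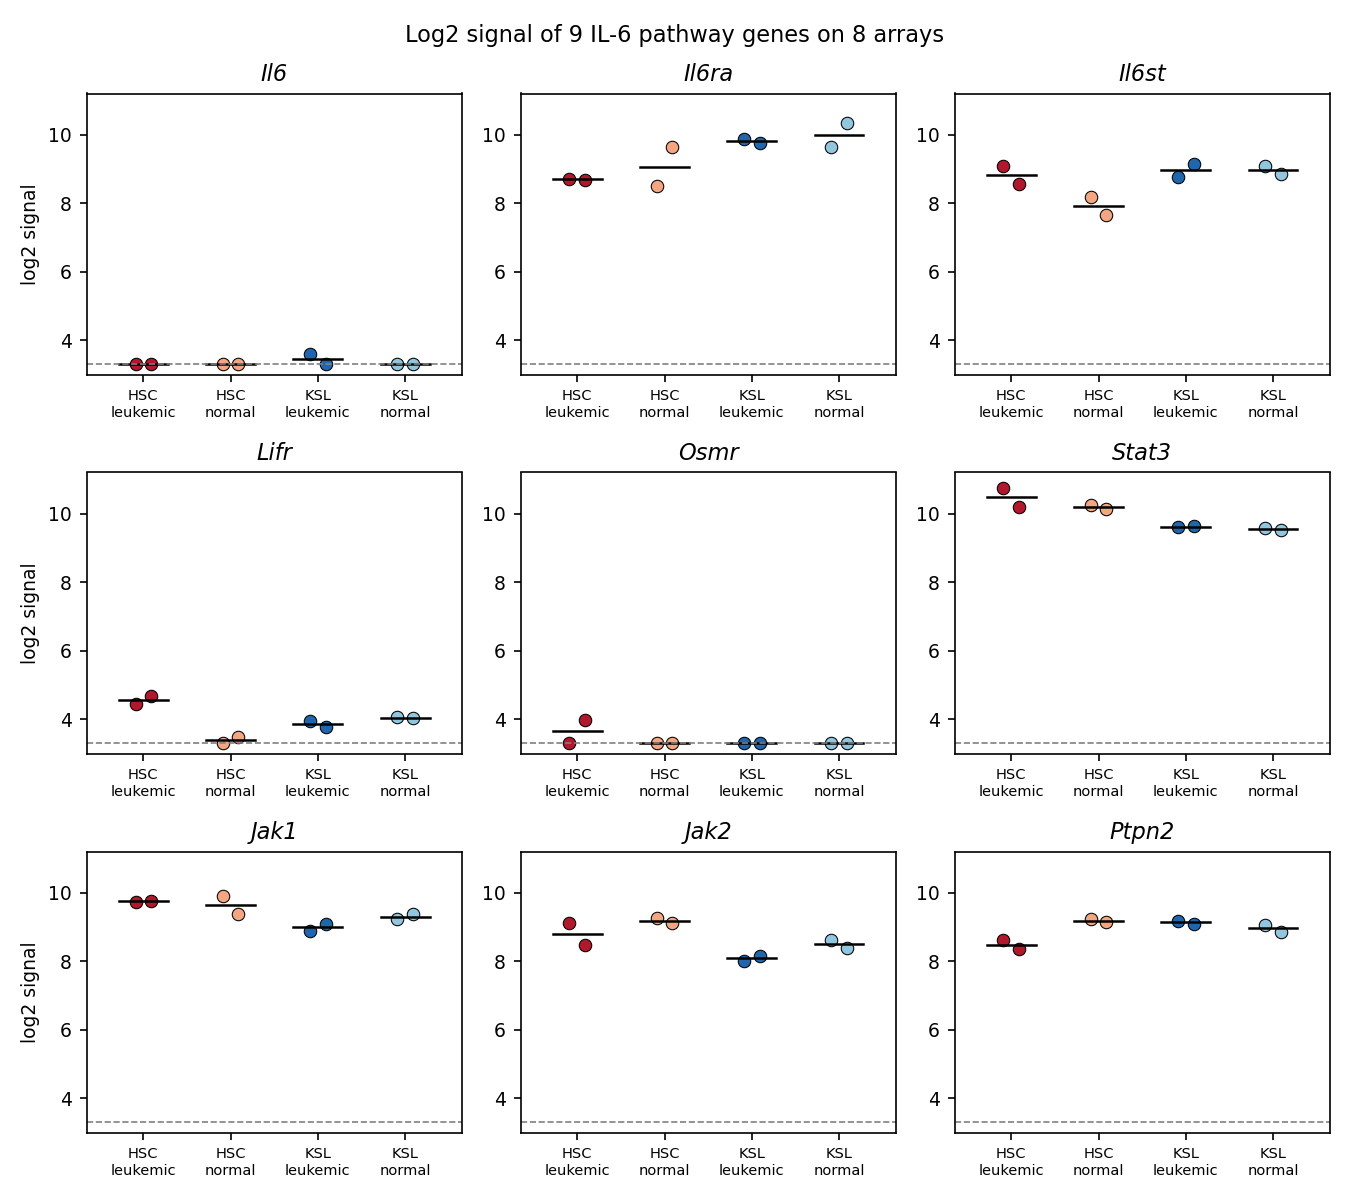
Log2 signal of each of the 9 members on every array, in exposed HSC, control HSC, exposed KSL and control KSL (points, 2 arrays per group; bars, group means; dashed line, the floor at 3.32). Il6 and Osmr sit at the floor on 7 of 8 arrays each, Stat3 is higher and Il6ra lower on all HSC than on all KSL arrays, and Il6st is lowest in control HSC.

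The brightest probe set of each gene, by its mean over all arrays, stood for the gene, and its log2 signals were fitted with limma, a linear model that shares information on the spread across genes. A gene passed at a Benjamini-Hochberg adjusted p under 0.05 over all 18193 genes. Errors beside log2 fold changes are the fit's standard errors, with n = 2 arrays per group and 4 residual degrees of freedom.

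The first question the design asks is whether non-transformed cells exposed to leukemia differed from cells of normal mice. In HSC, the receptor chain genes Il6st and Lifr had higher signals and the phosphatase gene Ptpn2 a lower signal on both arrays of leukemic mice, but 0 of the 9 members passed the test. In this comparison 18 of all genes passed, 0.0989% of those tested. At an unadjusted p under 0.05, 2 members were higher and 1 was lower, 3 of 9, where 13.8% of all genes reached that level. The arrays of the groups did not overlap for the same count of 3 members, against 32.7% of all genes, so a share of that size is close to the background. The median log2 fold change of the members was 0.12, and that of all genes was 0.

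The ligand Il6 had a signal at the floor of 3.32 on both exposed HSC arrays and on both control HSC arrays. In exposed KSL it was at 3.60 and 3.32, and in control KSL at 3.32 on both arrays. The gene's single probe set therefore stood above the floor on 1 of 8 arrays, and no fold change is given for it.

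Il6st, which encodes the gp130 signalling chain, was at 9.09 and 8.55 in exposed HSC, against 8.17 and 7.65 in control HSC. It was at 8.77 and 9.15 in exposed KSL and at 9.08 and 8.86 in control KSL. The HSC groups did not overlap, while the KSL groups did. The HSC difference was 0.91 ± 0.29 log2 units, 1.88-fold, with an adjusted p of 0.292 in limma, and the KSL difference was -0.01 ± 0.29 with an adjusted p of 1. All 4 Il6st probe sets had a higher mean in exposed than in control HSC, by 0.17 to 1.37, and 3 of them did not overlap. The difference between the HSC and KSL effects, 0.92 ± 0.41, did not pass either (adjusted p = 0.610). These are bulk samples, in which fewer cells of a type and less RNA per cell cannot be told apart.

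Lifr, the receptor chain for leukemia inhibitory factor, had low signals throughout. It was at 4.44 and 4.67 in exposed HSC, against 3.32 and 3.50 in control HSC, the first of which is at the floor. It was at 3.94 and 3.79 in exposed KSL and at 4.06 and 4.05 in control KSL. Exposed HSC had the highest of these signals and control HSC the lowest, with KSL between them. Because 1 control HSC array is at the floor and the other is just above it, the floor may understate each Lifr difference against control HSC. The fitted HSC difference was 1.15 ± 0.11, 2.22-fold (adjusted p = 0.0866), and the KSL difference -0.18 ± 0.11 (adjusted p = 0.876). With 1 array left out, the HSC difference ran from 1.03 to 1.26. Without the first exposed HSC array, the HSC difference was 1.26 and passed (adjusted p = 0.0452), with the remaining array of that group assumed to vary like the other groups. A second Lifr probe set also had non-overlapping HSC groups, with a difference of 0.65, and the last lay at the floor on all 8 arrays. The HSC effect exceeded the KSL effect by 1.33 ± 0.16, with an adjusted p of 0.176.

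Osmr, the oncostatin M receptor chain, was at 3.32 and 3.98 in exposed HSC and at the floor on the 6 other arrays. Its second probe set was above the floor on the other exposed HSC array, at 3.59, and nowhere else, and its last was at the floor on all 8 arrays. The 2 probe sets thus stood above the floor on different arrays of 1 group. The adjusted p of the HSC comparison was 0.595, and 0.0199 without the first exposed HSC array, which leaves the single value of 3.98 in that group.

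Il6ra, the ligand-binding receptor chain, was at 8.72 and 8.69 in exposed HSC, against 8.50 and 9.63 in control HSC. The KSL signals were 9.87 and 9.76 in exposed cells and 9.65 and 10.35 in control cells. The groups overlapped in both cell types. The differences were -0.36 ± 0.44 in HSC (adjusted p = 0.803) and -0.18 ± 0.44 in KSL (adjusted p = 1), and the second Il6ra probe set had the opposite sign in both, at 0.36 and 0.04.

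**Figure D2:**
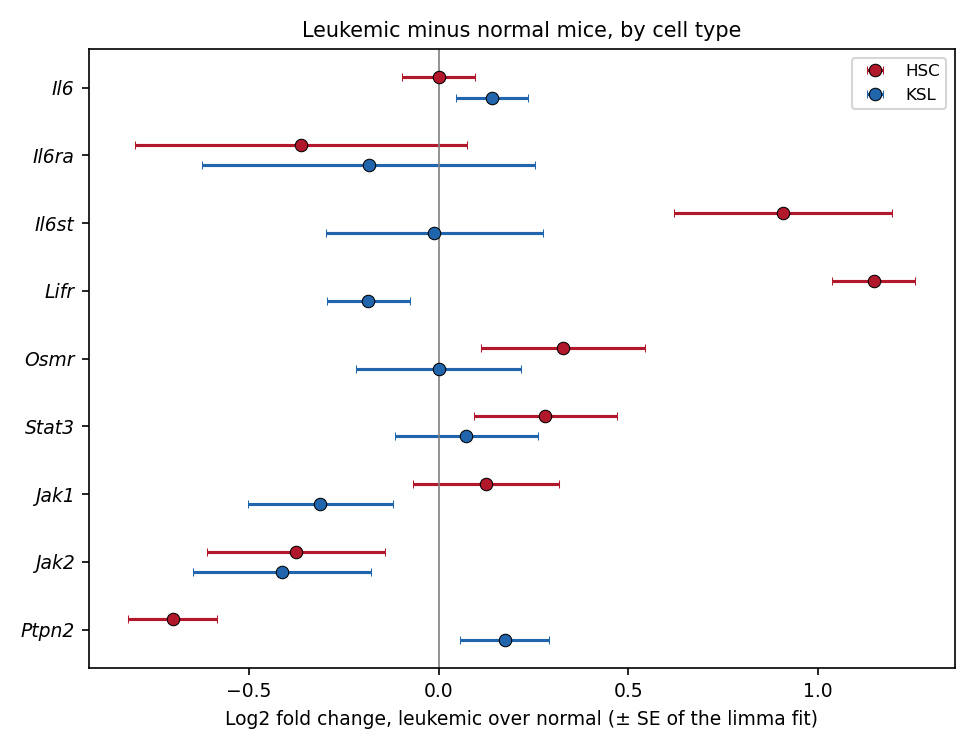
Log2 fold change of each member, leukemic over normal mice, in HSC and in KSL (points, limma estimates; bars, ± 1 SE; 2 arrays per group). In HSC, Lifr at 1.15 and Il6st at 0.91 lie to the right and Ptpn2 at -0.70 to the left, while every KSL estimate lies between -0.41 and 0.17, and no estimate passed the test.

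Neither the kinase genes nor Stat3 passed by disease state. Jak1, a receptor-bound kinase used by all gp130 receptors, was at 9.74 and 9.76 in exposed HSC and at 9.89 and 9.36 in control HSC. Its KSL signals were 8.89 and 9.09 in exposed cells, below the 9.23 and 9.36 of control cells. The KSL difference of -0.31 ± 0.19 did not pass (adjusted p = 0.892), although all 3 Jak1 probe sets were lower without overlap, by 0.24 to 0.36.

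Jak2, the kinase best known for erythropoietin and thrombopoietin receptor signalling, was at 9.12 and 8.49 in exposed HSC and at 9.25 and 9.11 in control HSC. In KSL the gene was at 8.005 and 8.17 in exposed cells and at 8.62 and 8.37 in control cells. Its 2 probe sets disagreed on the direction, with -0.38 and 0.53 in HSC and with -0.41 and 0.54 in KSL, so no direction by disease state is given for it.

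Stat3 was at 10.75 and 10.20 in exposed HSC, against 10.24 and 10.13 in control HSC, and at 9.60 and 9.65 in exposed KSL, against 9.59 and 9.51 in control KSL. The exposed and control arrays overlapped in HSC and were close together without overlap in KSL. With 1 array left out, the HSC difference ran from 0.01 to 0.56. The differences were 0.28 ± 0.19 in HSC (adjusted p = 0.597) and 0.07 ± 0.19 in KSL (adjusted p = 1).

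Ptpn2 encodes a phosphatase that removes phosphate from JAK1 and STAT proteins. It was at 8.62 and 8.36 in exposed HSC, against 9.23 and 9.15 in control HSC. On the KSL arrays it was at 9.17 and 9.09 in exposed cells and at 9.06 and 8.86 in control cells. Both exposed HSC arrays were below the 6 other arrays. The HSC difference was -0.70 ± 0.12 (adjusted p = 0.141) and the KSL difference 0.17 ± 0.12 (adjusted p = 0.925). Of its 4 probe sets, 2 were lower in exposed HSC and 2 were not, over a range of -0.70 to 0.14.

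In KSL, 0 of the 9 members passed by disease state, where 8 genes, 0.044% of all, did, and 0 members reached an unadjusted p under 0.05, against 7.95% of all genes. By the brightest probe set, groups did not overlap for 5 of 9 members, against 44.5% of all genes. On these sets 2 were higher (Stat3 and Ptpn2) and 3 lower (Lifr, Jak1 and Jak2). Another probe set of the gene had the opposite sign without overlap for Stat3 (-0.33), Ptpn2 (-0.39) and Jak2 (0.54). In the test of the HSC effect against the KSL effect, 0 members passed, where 1 gene, 0.0055% of all, did. At an unadjusted p under 0.05 there were 2 members, Lifr and Ptpn2, against 9.09% of all genes.

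Neutrophil and monocyte markers moved with the HSC comparison, where 16% of all genes were higher and 16.7% lower without overlap. The list is not limited to genes of mature cells: its genes Elane, Mpo, Ctsg and Prtn3 were at 12.44 to 13.31 on the 4 KSL arrays. Of 15 measured genes of neutrophils and monocytes, 12 were higher without overlap and 0 lower in exposed HSC, and 0 of the 15 were at the floor on all arrays. Their summed linear signal was 23815 and 20276 in exposed HSC, against 11920 and 2916 in control HSC. In KSL 9 of the 15 were higher and 1 lower, where 44.5% of all genes did not overlap in either direction. The KSL sums of these markers were 50044 and 44686 in leukemic mice, against 35425 and 37759 in normal mice. The part of these genes in the Il6st, Lifr and Ptpn2 values was not tested. Of 10 macrophage markers, 0 were higher and 4 lower without overlap in exposed HSC, with sums of 376 and 610 against 468 and 696 in control HSC.

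Some stem cell gate genes had lower signals beside these values. Of 8 measured, 0 were higher and 3 lower without overlap in exposed HSC, where 16.7% of all genes were lower in this way. By group mean 2 of the 8 were higher and 6 lower in exposed HSC, with a median log2 fold change of -0.09. In exposed KSL 0 were higher and 5 lower without overlap, where 44.5% of all genes did not overlap in either direction. The list had 0 genes that passed in either comparison. Procr, which encodes the stem cell surface protein EPCR, was at 8.63 and 8.78 in exposed HSC, against 10.18 and 9.73 in control HSC. Fgd5, a stem cell reporter gene in mice, was at 4.79 and 5.96 in exposed HSC, against 7.13 and 7.04 in control HSC. The last of the 3 was Slamf1, with the values given above. The part of these genes in the Il6st, Lifr and Ptpn2 values was not tested.

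The other lists varied in direction. Among all genes, 16% were higher and 16.7% lower without overlap in HSC, and 44.5% did not overlap in either direction in KSL. Of 10 mast cell, basophil and eosinophil markers, 5 were higher and 1 lower without overlap in exposed HSC, with sums of 448 and 797 against 553 and 471 in control HSC. In KSL 8 of them were higher and 1 lower, with sums of 7888 and 7882 in exposed cells, against 3865 and 5832 in control cells. B lineage sums were 1061 and 4180 in exposed HSC and 560 and 1171 in control HSC, with 5 of 8 markers higher and 1 lower and Ms4a1 at the floor on all arrays. Of 10 T and NK cell markers, 4 were higher and 0 lower in exposed HSC (sums 1111 and 1163, against 742 and 1001 in control HSC), and Ncr1 and Gzma were at the floor on all arrays. Of 6 megakaryocyte markers 1 was higher and 0 lower (7261 and 8324 in exposed HSC, 4397 and 8200 in control HSC), and of 7 erythroid markers 0 were higher and 1 lower (1258 and 1758 in exposed HSC, 5707 and 1085 in control HSC). Of 11 stromal and endothelial markers, 2 were higher and 2 lower (1403 and 1090 in exposed HSC, 1144 and 1233 in control HSC). In exposed KSL, 0 B lineage markers were higher and 2 lower, and 1 T and NK cell marker was higher and 5 lower. Of megakaryocyte markers 0 were higher and 3 lower there, and of erythroid markers 1 was higher and 3 lower. For stromal and endothelial markers these counts were 2 and 4, and for macrophage markers 1 and 4. The 3′ minus 5′ log2 signal of control transcripts, a readout of RNA integrity and amplification, separated the HSC groups for all 3 controls, upward for 2 and downward for the other. For the Tfrc control probes it was -0.36 and -0.75 in exposed HSC, against -2.04 and -1.74 in control HSC, and -1.28 to -1.68 on the 4 KSL arrays. The Gapdh control difference was 1.19 and 1.03 in exposed HSC, and 0.73 to 0.89 on the 6 other arrays. The Actb control difference was -0.42 and -0.50 in exposed HSC, against -0.37 and -0.38 in control HSC, and -0.48 to -0.53 on the 4 KSL arrays. The part of this in the HSC values was not tested.

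The second question is how the pathway differed between stem cells and the wider progenitor gate. Stat3 was higher and Il6ra lower in HSC than in KSL, on all 4 arrays against all 4, and these were the only members of the 9 whose arrays separated in this way. Among all genes, 16.8% did so, 9.4% higher and 7.44% lower. In HSC the Stat3 signal ran from 10.13 to 10.75, and in KSL from 9.51 to 9.65. In HSC the Il6ra signal ran from 8.50 to 9.63, and in KSL from 9.65 to 10.35, so that the highest HSC array and the lowest KSL array nearly touched.

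Averaged over leukemic and normal mice, a comparison added after the values were seen, Stat3 was 0.74 ± 0.13 log2 units higher in HSC than in KSL, a 1.67-fold difference (adjusted p = 0.0397). It was the 1 member of 9 to pass, where 9.68% of all genes did. Of the 4 Stat3 probe sets, 3 had 4 HSC arrays above all 4 KSL arrays. The dimmest set, at 5.50 and 5.60 in exposed HSC and 5.29 and 5.06 in exposed KSL, was not higher in normal mice, at 5.43 and 5.40 in control HSC and 5.48 and 5.54 in control KSL. The Stat3 call depended on single arrays: the adjusted p was 0.0871 without the first and 0.0818 without the second control HSC array, 0.148 and 0.133 without the first and second exposed KSL array, and 0.119 and 0.127 without the first and second control KSL array. It was 0.0594 with the replicate number as a block, 0.0757 with a term for male arrays and 0.207 without the 2 male arrays, while the difference stayed between 0.60 and 0.88 whichever array was left out.

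Il6ra averaged -1.02 ± 0.31 in the same comparison, 2.03-fold lower in HSC, with an adjusted p of 0.123. Its second probe set was at 7.61 and 5.92 in exposed HSC and 7.83 and 8.06 in exposed KSL, and at 6.44 and 6.39 in control HSC and 7.87 and 7.94 in control KSL. Every HSC array of this set too was below every KSL array. With a term for male arrays the adjusted p was 0.0212, and without the 2 male arrays it was 0.0458 with a difference of -0.92. Within leukemic mice Il6ra differed by -1.11 ± 0.44 (adjusted p = 0.230) and within normal mice by -0.94 ± 0.44 (adjusted p = 0.402). With 1 array left out, the difference within normal mice ran from -1.504 to -0.37.

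**Figure D3:**
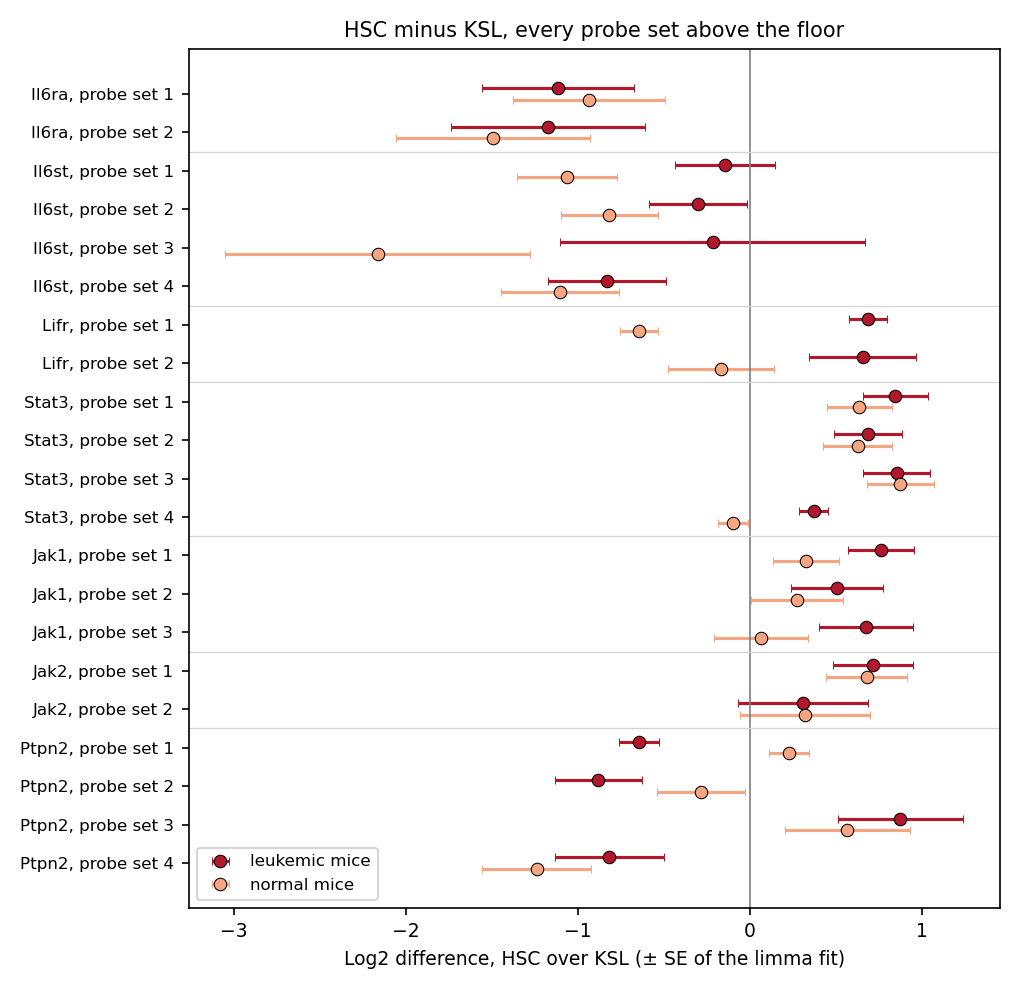
Log2 difference of HSC over KSL for every member probe set except those of Il6 and Osmr and the Lifr set at the floor on all arrays, in leukemic mice and in normal mice (points, limma estimates; bars, ± 1 SE; 2 arrays per group). Both Il6ra and all 4 Il6st probe sets lie left of 0 in both kinds of mice, 3 of the 4 Stat3 and all 3 Jak1 sets lie right of 0 in both, and the Ptpn2 sets disagree.

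Within leukemic mice, Lifr rose in HSC over KSL by 0.69 ± 0.11 (1.61-fold, adjusted p = 0.0415), the 1 member of 9 to pass, where 5.86% of all genes did. The exposed HSC arrays were at 4.44 and 4.67 and the exposed KSL arrays at 3.94 and 3.79, all near the floor. The second Lifr probe set had a difference of 0.66 with an adjusted p over probe sets of 0.322. The call was lost on leaving out any of 7 arrays: the adjusted p was 0.0752 without the second exposed HSC array, 0.0557 without either control HSC array, 0.166 and 0.188 without the first and second exposed KSL array, and 0.101 without either control KSL array. It was also lost with a common median (0.0667), with genes at the floor throughout left out (0.0594), with array weights (0.0615), with only the arrays compared or without the male arrays (0.130 each), with a term for male arrays (0.0775) and with the replicate number as a block (0.0821). At an unadjusted p under 0.05, 4 members were higher (Lifr, Stat3, Jak1 and Jak2) and 1 was lower (Ptpn2), against 23% of all genes. Arrays did not overlap for 6 of 9 members, against 51.4% of all genes.

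Stat3, Jak1 and Jak2 were each higher in exposed HSC than in exposed KSL without overlap and did not pass. Stat3 differed by 0.85 ± 0.19 (adjusted p = 0.0812), Jak1 by 0.76 ± 0.19 (adjusted p = 0.104) and Jak2 by 0.72 ± 0.23 (adjusted p = 0.168). All 3 Jak1 and all 4 Stat3 probe sets had the same direction without overlap. Ptpn2 differed by -0.64 ± 0.12 (adjusted p = 0.0529), but 1 of its 4 probe sets had the opposite sign, at 0.88. Il6st differed by -0.14 ± 0.29 (adjusted p = 0.869), with overlapping arrays on its brightest probe set. All 4 Il6st probe sets had a lower mean in exposed HSC, with differences from -0.83 to -0.14, and 3 of them did not overlap. Leaving out 1 array brought some of these past the test, in fits with 1 array left in a group. Stat3 differed by 0.57 without the first and 1.12 without the second exposed HSC array, and Ptpn2 by -0.77 without the first. Jak1 stayed at 0.76 whichever control HSC array was left out, since those arrays enter this comparison only through the shared spread.

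Within normal mice 0 of the 9 members passed, where 1.8% of all genes did. Arrays did not overlap for 6 members, against 43.5% of all genes: Stat3, Jak2 and Ptpn2 were higher in HSC, and Il6ra, Il6st and Lifr were lower. Il6st had the largest of these differences, -1.06 ± 0.29 (2.09-fold lower, adjusted p = 0.179), and all 4 of its probe sets were lower without overlap, by 0.82 to 2.16. Lifr differed by -0.64 ± 0.11 (adjusted p = 0.0789), a size that the floor may understate for the reason above. Its sign was opposite to that in leukemic mice. Stat3 differed by 0.64 ± 0.19 (adjusted p = 0.208) and Jak2 by 0.68 ± 0.23 (adjusted p = 0.267). Jak1 differed by 0.33 ± 0.19 (adjusted p = 0.509) and Ptpn2 by 0.23 ± 0.12 (adjusted p = 0.438). Leaving out either exposed HSC array took Stat3 past the test with its difference still at 0.64. Those arrays enter this comparison only through the shared spread. The comparisons of exposed with control HSC and of HSC with KSL in normal mice share the control HSC arrays, where Il6st and Lifr were lowest.

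Several lists of cell type markers differed between HSC and KSL too. Among all genes, arrays did not overlap in either direction for 51.4% in leukemic and 43.5% in normal mice, and 9.68% passed in the mean of both. Of the 15 neutrophil and monocyte markers, 5 were higher and 8 lower without overlap in exposed HSC than in exposed KSL, and 0 higher and 9 lower in normal mice. Of 10 mast cell, basophil and eosinophil markers, 1 was higher and 9 lower in both kinds of mice, with sums of 448 and 797 in exposed HSC and 7888 and 7882 in exposed KSL, and of 553 and 471 in control HSC and 3865 and 5832 in control KSL. Of 6 megakaryocyte markers, 5 were higher in exposed HSC and 4 in control HSC and 0 were lower in either, and Gp6 was at the floor on all arrays. Of 10 T and NK cell markers, 2 were higher and 6 lower in HSC in both kinds of mice, and 5 passed as lower in the mean of both. Of 10 macrophage markers, 0 were higher and 6 lower in leukemic mice and 1 was higher and 5 lower in normal mice. Of 8 B lineage markers, 4 were higher and 1 lower in leukemic mice, and 1 was higher and 4 lower in normal mice. Of 7 erythroid markers, 2 were higher and 2 lower in leukemic mice, and 1 was higher and 1 lower in normal mice. Of 11 stromal and endothelial markers, 7 were higher and 1 lower in leukemic mice and 6 higher and 2 lower in normal mice, and 2 passed as higher in the mean. In the mean, 8 neutrophil and monocyte, 8 mast cell, basophil and eosinophil and 1 of the macrophage markers passed as lower. For the megakaryocyte markers 4 passed as higher, as did 1 erythroid marker. The part of these genes in the Stat3 and Il6ra values was not tested.

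Other genes of the pathway were described in 6 lists from general knowledge of the field. In the comparison of leukemic with normal mice, 0 of the 62 listed genes that were measured passed in HSC and 0 passed in KSL. Of all genes, 0.0989% passed in HSC and 0.044% in KSL. The numbers below give, for each list, the genes whose arrays did not overlap in HSC, where 16% of all genes were higher and 16.7% lower in this way.

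Of 6 other IL-6 family ligands, 1 was higher and 3 were lower in exposed HSC, with a median log2 fold change of -0.37. Ebi3, a subunit shared by related cytokines of this family, was at 7.18 and 7.54 in exposed HSC, against 9.44 and 9.06 in control HSC (-1.90 ± 0.25, adjusted p = 0.118). Ebi3 was at 7.72 and 7.31 in exposed KSL, against 8.52 and 8.12 in control KSL (-0.80 ± 0.25, adjusted p = 0.543). Osm, which encodes oncostatin M, was at 7.59 and 7.14 in exposed HSC, against 6.62 and 6.59 in control HSC (0.76 ± 0.20, adjusted p = 0.235), and had 0.47 ± 0.20 in KSL (adjusted p = 0.705). Both genes kept non-overlapping arrays in both cell types, Ebi3 lower and Osm higher in leukemic mice.

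Of 4 other receptors and sheddases, 1 was higher and 0 were lower in exposed HSC, with a median of 0.35. The smallest p-values belonged to Adam17, a protease that sheds the IL-6 receptor (0.55 ± 0.39, adjusted p = 0.615), and Cntfr, the receptor chain for ciliary neurotrophic factor (0.21 ± 0.16, adjusted p = 0.642) in HSC. In KSL they belonged to Adam10, a related protease (-0.28 ± 0.14, adjusted p = 0.788), and Il27ra, the receptor chain for interleukin-27 (-1.13 ± 0.71, adjusted p = 0.909). Of 7 other JAK kinases and STAT factors, 1 was higher and 0 lower in exposed HSC, with a median of 0.02. Jak3, the kinase of the common gamma chain receptors, differed by 0.62 ± 0.24 in HSC (adjusted p = 0.362), and Stat5b, a main STAT of BCR-ABL and cytokine signalling, by -0.37 ± 0.10 in KSL (adjusted p = 0.468). Stat4 had 0.29 ± 0.20 in HSC (adjusted p = 0.608) and Stat5a -0.40 ± 0.20 in KSL (adjusted p = 0.781).

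Of 17 inhibitors of JAK and STAT signalling, 4 were higher and 3 were lower in exposed HSC, with a median of 0.17. Socs3, which binds gp130 and is itself induced by STAT3, was at 8.49 and 8.88 in exposed HSC, against 7.11 and 6.87 in control HSC (1.70 ± 0.16, adjusted p = 0.0819). In exposed KSL Socs3 was at 7.32 and 7.35, against 6.27 and 6.17 in control KSL (1.12 ± 0.16, adjusted p = 0.215, and 0.0376 with array weights). Socs5, another member of the same inhibitor family, was at 6.35 and 6.32 in exposed HSC, against 7.79 and 8.31 in control HSC (-1.71 ± 0.24, adjusted p = 0.125). In exposed KSL Socs5 was at 5.32 and 5.02, against 6.49 and 6.07 in control KSL (-1.11 ± 0.24, adjusted p = 0.354). The 2 genes had opposite signs, each the same in both cell types. In HSC, Socs3 passed without the first (1.90, adjusted p = 0.0339) or the second (1.51, adjusted p = 0.0440) array of leukemic mice, which leaves 1 array in that group, and with all arrays set to a common median (1.75, adjusted p = 0.0450).

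The adaptor list holds adaptors that link gp130 to the MAPK and PI3K branches, and also Stam and its relative Stam2. Of its 8 genes, 1 was higher and 4 were lower in exposed HSC, with a median of -0.43. Stam had -0.89 ± 0.21 in HSC (adjusted p = 0.213) and 0.49 ± 0.21 in KSL (adjusted p = 0.714). Gab1, a docking protein for SHP2 and PI3K, had -1.24 ± 0.32 in HSC (adjusted p = 0.234) and -0.46 ± 0.32 in KSL (adjusted p = 0.936). Of 20 STAT3 target genes, 7 were higher and 4 were lower in exposed HSC, with a median of 0.09. In KSL 6 were higher and 7 lower, with a median of -0.03, where 44.5% of all genes did not overlap in either direction. Ccnd1, which encodes cyclin D1, had 0.57 ± 0.07 in HSC (adjusted p = 0.0944) and -0.21 ± 0.07 in KSL (adjusted p = 0.532). Pim2, a survival kinase, had 0.92 ± 0.17 in HSC (adjusted p = 0.157), and Fos, a subunit of the factor AP-1, had -0.73 ± 0.16 in KSL (adjusted p = 0.346).

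**Figure D4:**
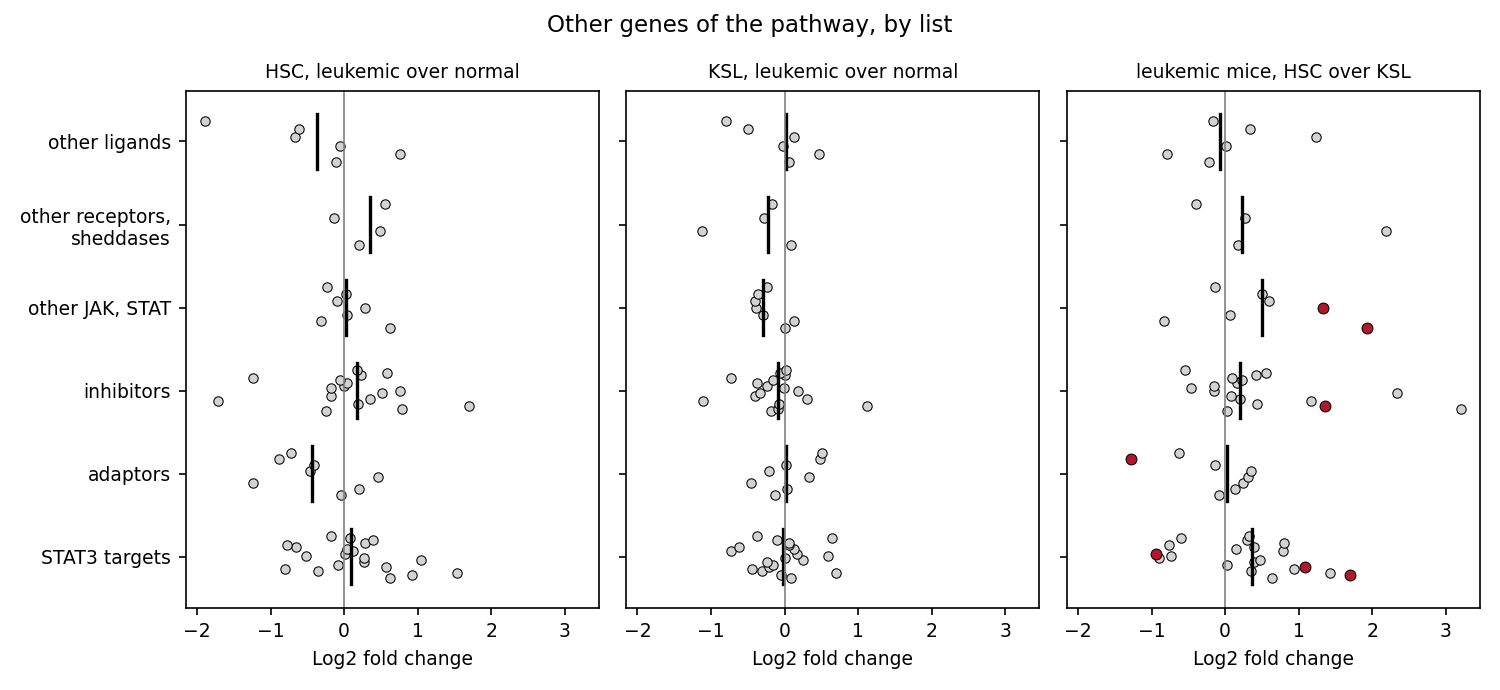
Log2 fold change of each measured gene of the 6 pathway lists, for HSC of leukemic over normal mice, KSL of leukemic over normal mice, and HSC over KSL in leukemic mice (grey points, not past the test; red points, adjusted p under 0.05; bars, list medians). Red points appear only in the HSC over KSL panel, where Jak3, Stat4, Socs3, Ccnd1 and Pim2 lie right of 0 and Stam and Birc5 left of it.

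Between exposed HSC and exposed KSL, 7 of the 62 genes passed, 5 higher and 2 lower, where 5.86% of all genes did. Jak3 was at 10.01 and 9.41 in HSC and 7.94 and 7.62 in KSL (1.93 ± 0.24, adjusted p = 0.0257), and Stat4 at 8.66 and 9.02 in HSC and 7.43 and 7.60 in KSL (1.33 ± 0.20, adjusted p = 0.0368). Socs3 was higher in HSC by 1.35 ± 0.16 (adjusted p = 0.0231). The STAT3 targets Pim2 and Ccnd1 were higher by 1.70 ± 0.17 (adjusted p = 0.0168) and 1.08 ± 0.07 (adjusted p = 0.00839). Birc5, which encodes the mitotic protein survivin, was at 9.25 and 9.18 in HSC and 10.21 and 10.11 in KSL (-0.94 ± 0.11, adjusted p = 0.0250), and Stam differed by -1.28 ± 0.21 (adjusted p = 0.0443). By list, the passing genes were 2 of 7 JAK and STAT genes, 1 of 17 inhibitors, 1 of 8 adaptors and 3 of 20 targets, and 0 of the ligands and receptors passed. List medians were 0.51 for the JAK and STAT genes, 0.37 for the targets, 0.22 for the other receptors and sheddases, 0.20 for the inhibitors, 0.03 for the adaptors and -0.07 for the other ligands, against 0.01 over all genes. All 7 calls were lost without either exposed KSL array, without the 2 male arrays and with only the arrays compared. With the replicate number as a block 1 of the 7 passed (Ccnd1), the others having adjusted p from 0.05005 to 0.0820, and with a term for male arrays 4 passed. Of the 7, 5 passed without the first and 4 without the second exposed HSC array, 6 without either control HSC array and 2 (Ccnd1 and Pim2) without either control KSL array. In normal mice 0 of the 62 passed, where 1.8% of all genes did. The mean of both kinds of mice, added after the values were seen, gave 9 higher and 3 lower, where 9.68% of all genes passed.

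The genes whose pattern lay nearest to a member were found by the root mean square difference of centred log2 signals over the 8 arrays. For Stat3 these were Gatad1 at 0.0904, Pja2 at 0.106 and Clcn3 at 0.117, against a Stat3 SD of 0.439 over the arrays. For Il6ra they were Sv2a at 0.138, Kcnk6 at 0.171 and Rpp40 at 0.179 (Il6ra SD 0.672). For Il6st they were Clnk at 0.167, Tacc3 at 0.182 and Ppm1m at 0.182 (Il6st SD 0.525). For Lifr they were Plekhm1 at 0.152, Fosl2 at 0.159 and Esrrg at 0.159 (Lifr SD 0.448). Fosl2, a subunit of AP-1, was likewise highest in exposed HSC and lowest in control HSC, at 8.07 and 8.15 in exposed HSC, 6.65 and 6.64 in control HSC, 7.27 and 7.25 in exposed KSL and 7.19 and 7.35 in control KSL. Of these 12 genes, 0 are in the pathway lists.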

How the data were processed

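Gene expression of sorted CD45.1+ HSC and KSL was read on 8 arrays. The authors deposited 1 table of log2 values for 45101 probe sets. RMA (background correction, quantile normalization, median polish) is named without a version, per the submitters' processing notes. The sources used here do not say how the floor was set. The design text names a Nugen amplification kit and the labels' protocol a standard Affymetrix cRNA preparation, so the amplification is not settled. The disease state and cell type characteristics gave the groups. Descriptions that mention embryos were set aside, and titles of the exposed KSL samples contain both wordings.

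Symbols came from the platform annotation (34945 probe sets with 1 symbol, 932 with several, 9160 with none, 64 controls), and the brightest set stood for each of 18193 genes. Signals of different genes were not set against each other. There was no filter on low values, so 1290 genes at the floor throughout stayed in. The model (limma 3.58.1 on R 4.3.3, functions lmFit and eBayes) had 1 mean per group, two-sided tests and 0.668 prior degrees of freedom, and was tested on simulated data. Precision is limited by the number of arrays. Other software was Python 3.11.15 with matplotlib 3.10.9, numpy 2.4.6 and pandas 2.3.3. Sequences and promoter coordinates are from RefSeq, GRCm38.p6.

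The members and lists were chosen with earlier results of these data known. All members are named. Of each list, up to 4 genes that passed without overlap are named, otherwise the 2 with the smallest p in the HSC and in the KSL comparison. Ptprc is in the inhibitor list and among the gate genes. Deviations of same-numbered arrays correlated across groups with r between -0.0351 and 0.0873, highest for control HSC with control KSL. With 2 arrays per group, this cannot tell whether same-numbered arrays came from the same animals. The 2 male arrays, the first control HSC and the first control KSL array, bear the same number. The main fit took all arrays as independent. Alternatives were another normalization, filters on low values, other spread estimates, other probe sets, fewer arrays, the sex of the mice and the replicate number as a block.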

Additional observations from a re-analysis of the deposited data

Results flagged for a closer look

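For 6 of the 71 members and pathway list genes, all exposed arrays lay above control in 1 cell type and below it in the other. The test of the difference between these effects did not pass for any of them in limma. Among all genes, arrays did not overlap in either direction for 32.7% in HSC and 44.5% in KSL. The share of all genes on opposite sides was not counted, so 6 of 71 cannot be set against a background. Lifr was higher in exposed HSC and lower in exposed KSL, a difference between the effects of 1.33 ± 0.16 log2 units (adjusted p = 0.176). Ptpn2 was lower in exposed HSC and higher in exposed KSL (-0.88 ± 0.16, adjusted p = 0.311), and 2 of its 4 probe sets gave a positive value. Ccnd1, which encodes cyclin D1, was higher in exposed HSC and lower in exposed KSL (0.78 ± 0.09, adjusted p = 0.176). Stam, an adaptor with a signal-transducing motif, was lower in exposed HSC and higher in exposed KSL (-1.38 ± 0.30, adjusted p = 0.344). Junb, another AP-1 subunit and STAT3 target, was higher in exposed HSC and lower in exposed KSL (0.51 ± 0.22, adjusted p = 0.597), and Stam2, a relative of Stam, was lower in exposed HSC and higher in exposed KSL (-1.23 ± 0.53, adjusted p = 0.594). Junb and Stam2 fall outside the rule for named genes and were named after their values were seen. Lifr is near the floor on all arrays, and 1 of its control HSC arrays is at it.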

How the results depend on the processing

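With 2 arrays per group, calls near the threshold depended on the setting, and the causes were not tested. In exposed HSC against exposed KSL 1 member passed; this became 0 with a common median, without genes at the floor, without the 40% of genes lowest in mean (which leaves Lifr out), with array weights, with only the 4 arrays compared and without the male arrays, and 2 with cyclic loess (Lifr, and Ptpn2 at adjusted p = 0.0481). With a term for male arrays the 1 member was Il6ra (adjusted p = 0.0443), and with the replicate block it was Ptpn2 (adjusted p = 0.0447). In the mean of HSC against KSL 1 member passed; this became 0 with the replicate block (Stat3, adjusted p = 0.0594), 2 without genes at the floor and 3 without those lowest in mean. By disease state, the replicate block left the members' counts at 0. All-gene counts under the block were 0 in HSC and 0 in KSL, against 18 and 8 without it. Leaving out 1 array, which leaves 1 array in a group, also changed which members passed, except in KSL by disease state. Some of these calls were of Osmr without the first exposed HSC array. There its single value of 3.98 stood against arrays at the floor.

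Over all settings, genes passing ranged from 0 to 257 in HSC, 0 to 125 in KSL, 0 to 68 for the difference of effects, 0 to 525 in normal and 0 to 1316 in leukemic HSC against KSL, and 343 to 2126 in their mean. Of 558 member values under other settings, 8 changed sign, as did 17 of 432 with 1 array left out and 20 of 102 in other probe sets.

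By setting, Il6st in KSL became 0.0524 (common median), 0.0067 (cyclic loess), 0.18 (male term) and 0.10 (without male arrays), the Lifr mean of HSC against KSL -0.0141 (common median) and -0.0098 (cyclic loess), and without male arrays the Jak2 difference of effects -0.0184 and Jak1 in normal HSC against KSL -0.000899. In other probe sets, values in HSC by disease state were 0.36 for Il6ra, -0.0106 for Jak1, 0.53 for Jak2, and 0.14 and 0.0315 for Ptpn2. In KSL they were 0.0372 for Il6ra, -0.33 for Stat3, 0.54 for Jak2, and -0.17 and -0.39 for Ptpn2. Differences of effects were 0.32 for Il6ra, -0.0205 for Stat3, -0.0118 for Jak2, and 0.31 and 0.42 for Ptpn2. Normal HSC against KSL gave -0.10 for Stat3 and -0.28 and -1.24 for Ptpn2, leukemic 0.88 for Ptpn2, and the mean 0.72 for Ptpn2. With 1 array left out, Il6ra ran from -0.93 to 0.21 in HSC, -0.53 to 0.16 in KSL and -0.75 to 0.39 in the difference of effects. Il6st ran from -0.20 to 0.18 in KSL and -0.41 to 0.13 in leukemic HSC against KSL, Jak1 from -0.14 to 0.39 in HSC, Jak2 from -0.28 to 0.35 and Stat3 from -0.0665 to 0.48 in the difference of effects, and Lifr from -0.0334 to 0.0805 in the mean.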
